A study of Arabidopsis thaliana with 3 samples.

Results

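UAG, CAG, CAA and UAA were the motifs least often listed in a transcriptome-wide map of N6-methyladenosine (m6A) in Arabidopsis thaliana. A site is an adenosine, the middle letter of the motif. The members were all listed sites with one of these 4 three-letter contexts, written as RNA: 110 UAG, 105 CAG, 59 CAA and 22 UAA sites. Together they made up 296 of 120269 listed sites, a share of 0.246% (95% Wilson interval 0.22 to 0.276%). The samples were 3 biological replicates of wild-type Col-0 seedlings in 1 group, 7 days old and grown on plates of diluted Murashige and Skoog medium (22 °C, 16 h light). They carried no treatment, and there was no control group. The method was CAM-seq, in which a chemical treatment of the polyadenylated RNA deaminates adenosine to inosine, read as G, whereas m6A is still read as A. The level of a site is the percentage of its reads that stayed A.

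m6A is written onto messenger RNA by a methyltransferase complex built around MTA and MTB, the plant relatives of METTL3 and METTL14. The complex favours adenosines followed by C and, in plants, also by U, and the mark gathers in the 3′ untranslated region (UTR) close to the stop codon. The separate enzyme FIO1, the relative of METTL16, methylates U6 small nuclear RNA. A motif in which the A is followed by G or A after a pyrimidine lies outside the usual preference. The study used UAG as a gauge of background signal. For Arabidopsis, its plot of average level by motif defined background noise by UAG, UAA, CAG and CAA, which it called rarely methylated. Whether a listed site in these motifs was m6A or an adenosine that escaped deamination was not tested here.

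The sequences below show the letters around members described in the results, except EMB2752, which is shown only for its context. Each is the transcript context from the deposited table, 5′ to 3′, with the site in capitals. The coordinates are those of TAIR10. The first set holds 3′ UTR sites of UAG and CAG, shown for the UGUA upstream of each site and, in all but ARPC1A, the U at the second base after it.
AT4G31360, UAG (chr4:15223506-15223526, plus strand): uuguaaggcuAguuuauuauu
LCV2, UAG (chr1:16228615-16228635, minus strand): guguaaagauAguuuacgcgu
AT4G24880, UAG (chr4:12811325-12811345, plus strand): gauguaagauAguuuguucua
iqd2, CAG (chr5:710263-710283, minus strand): uguaagcgccAgucauuuauu
ARPC1A, CAG (chr2:13156996-13157016, plus strand): guguaagggcAgguauuaaua
EMB2752, CAG (chr4:14534286-14534306, minus strand): auguaaugacAgucucguuau

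The second set holds CAA sites in coding exons, shown because the AT2G01130, CPA and AT2G15570 sites have the highest CAA levels at 50 reads or more and the Tudor pair has alike contexts. The CPA and both Tudor contexts cross an exon junction, so only the position of the site is given for them.
AT2G01130 (chr2:88925-88945, minus strand): gaagcuauacAauggcugaag
AT2G15570 (chr2:6791850-6791870, minus strand): gaaguuacacAacgaucaugg
CPA (chromosome 3, position 1601129, plus strand): uggacuuggcAagauaaguau
Tudor1 (chromosome 5, position 2321068, minus strand): ggaaccgugcAaugauuguga
Tudor2 (chromosome 5, position 24825890, plus strand): ggaaccgcgcAaugauuguua

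The third set holds a UAG site inside an intron, the pair of UAA sites in a repeat, and the CAG site of U6 RNA.
ATRX intron, UAG (chr1:2725686-2725706, plus strand): guccgaaaguAggguuuuuau
CA2, UAA (chr5:4762552-4762572, plus strand): uaaaauaaauAaauaaaucau
CA2, UAA (chr5:4762556-4762576, plus strand): auaaauaaauAaaucauguuu
U6-29, CAG (chr5:18787416-18787436, plus strand): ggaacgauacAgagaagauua

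The table gives 1 depth and 1 number of unconverted reads per site, without sample names, and was read as the pool of the 3 replicates. No spread between replicates can be given, and the Wilson intervals and Fisher tests below cover counting error only. The table lists a site from 20 reads upward, if its binomial p-value against 1% unconverted reads was under 0.001. The lowest level that could be listed was therefore 20% at 20 reads, 6% at 100 reads and 2.2% at 1000 reads. Among marker genes of the seedling's organs, RBCS1A, RCA and LHCB1.3 of leaves had 19, 30 and 12 listed sites. Of the root genes, PIN2 had 5, SCR had 7 and EXPA7 had none, which says nothing of its expression.

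The members had low levels. CAA had the highest median level (9.09%), followed by UAA (6.97%), CAG (6.09%) and UAG (5.29%), against 21.9% for the 119973 other listed sites. The order depends on depth: among sites with at least 100 reads the medians were 4.85% (CAA), 4.58% (CAG), 4.13% (UAG) and 3.68% (UAA). Between the quartiles lay levels of 3.19 to 9.47% (UAG), 3.91 to 9.77% (CAG), 5.11 to 16.1% (CAA) and 3.69 to 11.4% (UAA), compared with 10.2 to 49.1% for the other listed sites. A level of at least 20% was found at 10 UAG, 5 CAG, 12 CAA and 0 UAA sites, 27 of 296 in all (9.12%), against 53.3% of the other listed sites. Only 1 member, the UAG in the ATRX intron, reached 50%.

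UAG and CAG sites were read more deeply than CAA and UAA sites. Median depths were 225.5 (UAG), 207 (CAG), 74 (CAA) and 95 reads (UAA), against 106 for the other listed sites. The deepest site of each motif had a low level. THI1, whose product makes the thiazole part of thiamin, held the deepest CAA site, with 535 of 43195 reads unconverted (1.24%, 1.14 to 1.35%). TCTP, which encodes a growth regulator, held the deepest CAG site, at 560 of 34394 reads (1.63%, 1.5 to 1.77%). GAPA-2, a chloroplast glyceraldehyde 3-phosphate dehydrogenase subunit of the Calvin cycle, held the deepest UAG site, at 199 of 13521 reads (1.47%, 1.28 to 1.69%). The deepest UAA site lay in AT1G72020, at 35 of 1454 reads (2.41%, 1.74 to 3.33%). The second deepest sites were in 18S ribosomal RNA (UAG), the ribosomal protein gene emb2171 (CAG, 1.81%), THI1 again (CAA, 2.99%) and AT2G26500 (UAA, 2.23%).

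**Figure D1:**
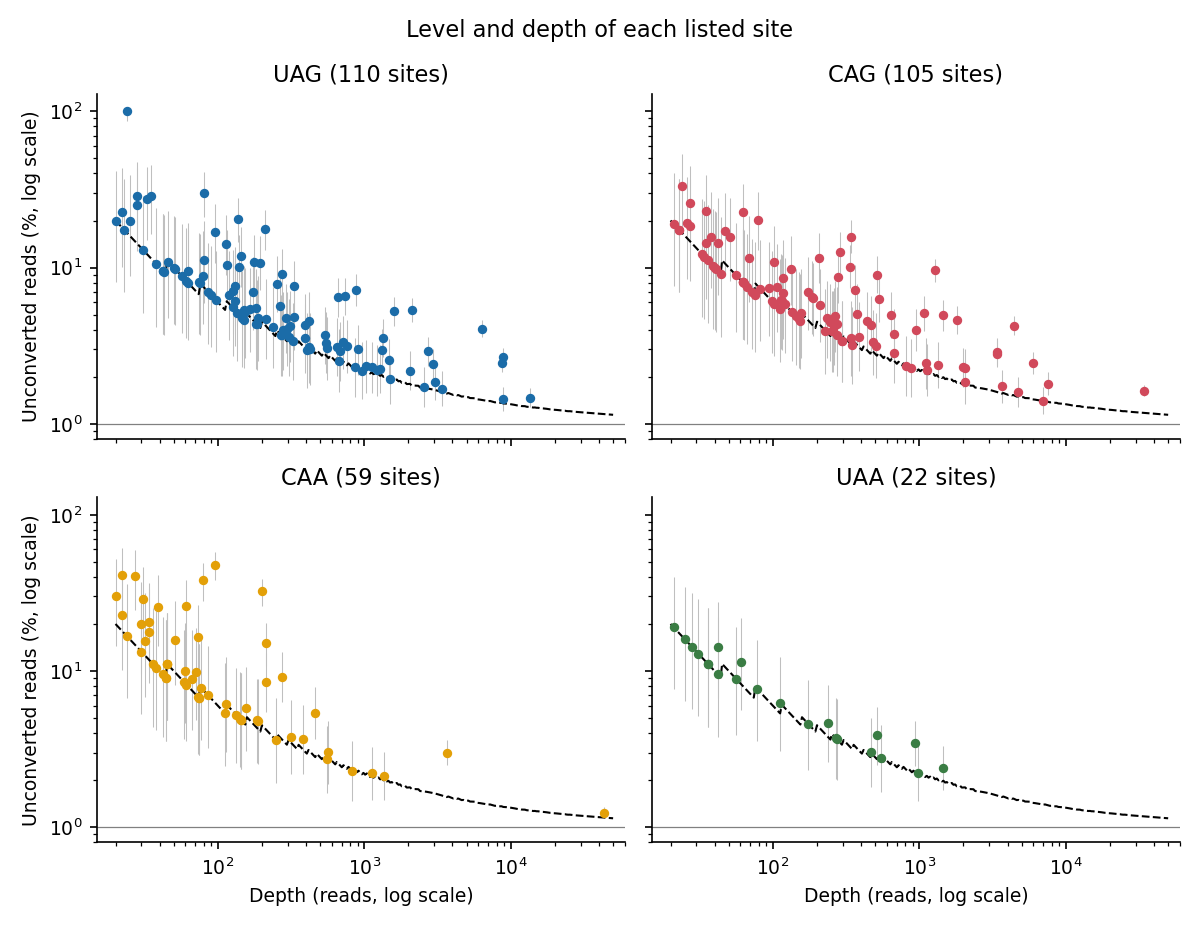
Level (unconverted reads, percent, log scale) against depth (reads, log scale) for each UAG, CAG, CAA and UAA site, with 95% Wilson intervals. The dashed line is the lowest level that could be listed at each depth and the grey line is 1%. Of the 296 sites, 114 lay exactly on the dashed line.

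Many members stood at the edge of the table. In all, 114 of 296 sites (38.5%) had the fewest unconverted reads with which they could be listed: 33 of 110 UAG, 40 of 105 CAG, 26 of 59 CAA and 15 of 22 UAA sites. This share was not computed for the other listed sites. A p-value of at most 1e-06 was reached by 42 UAG (38.2%), 40 CAG (38.1%), 19 CAA (32.2%) and 2 UAA sites (9.09%), where 79.9% of all listed sites reached it.

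In relation to the adenosines that could have been listed, the motifs differed by region. Over transcripts of genes with listed sites, 3′ UTRs held 13.7 listed UAG sites per 10000 UAG adenosines and 15.5 listed CAG sites per 10000 CAG adenosines. Coding sequences held 0.81 and 1.06. For CAA the order was the other way round, with 0.222 in 3′ UTRs and 0.973 in coding sequences, and for UAA the rates were 0.519 and 0.443. The same rate for GAC, a canonical motif, was 3732 in 3′ UTRs. The adenosines counted here include unread ones, so the rates are lower bounds for read adenosines of these genes. Genes without a listed site were left out, so the rates are not lower bounds for all read adenosines. A p threshold of 0.001 admits at most 10 in 10000 adenosines whose reads stay unconverted at exactly 1%, and fewer at low depth, because reads are whole numbers.

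Placement along the transcript separated the motifs in the same way. Of members placed on a coding transcript, 85 of 102 UAG sites (83.3%, 74.9 to 89.3%) and 60 of 96 CAG sites (62.5%, 52.5 to 71.5%) lay in the 3′ UTR. Only 2 of 54 CAA sites (3.7%, 1.02 to 12.5%) and 6 of 19 UAA sites (31.6%, 15.4 to 54%) did so. Of the other listed sites, 92.5% lay there. CAA sites were mainly in coding sequence, at 46 of 54 (85.2%), and 6 of 54 lay in the 5′ UTR, where 0.529% of the other listed sites lay. Of all CAA adenosines in the same transcripts, 73.2% are in coding sequence, 14% in the 3′ UTR and 12.8% in the 5′ UTR. Of all UAG adenosines, 20.8% are in the 3′ UTR, and of all CAG adenosines 9.47%. The 3′ UTR share of listed sites was thus several times that of the letters for UAG and CAG, and below it for CAA.

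Within the 3′ UTR, UAG and CAG sites lay at distances from the stop codon like those of the other listed sites. The median distance from the end of the stop codon was 116 nt for UAG and 135.5 nt for CAG, against 119 nt for the other listed sites. The last exon held 92.2% of placed UAG and 75% of CAG sites but 31.5% of CAA sites, against 96.9% of the other listed sites. Depth and level went along with region. The 3′ UTR members had median depths of 278 (UAG) and 317 reads (CAG) and median levels of 4.76 and 4.6%. The coding members had median depths of 74.5 and 66 reads and median levels of 7.59 and 8.06%. Since the lowest listable level falls with depth, these levels cannot be compared as if all sites could be listed alike.

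**Figure D2:**
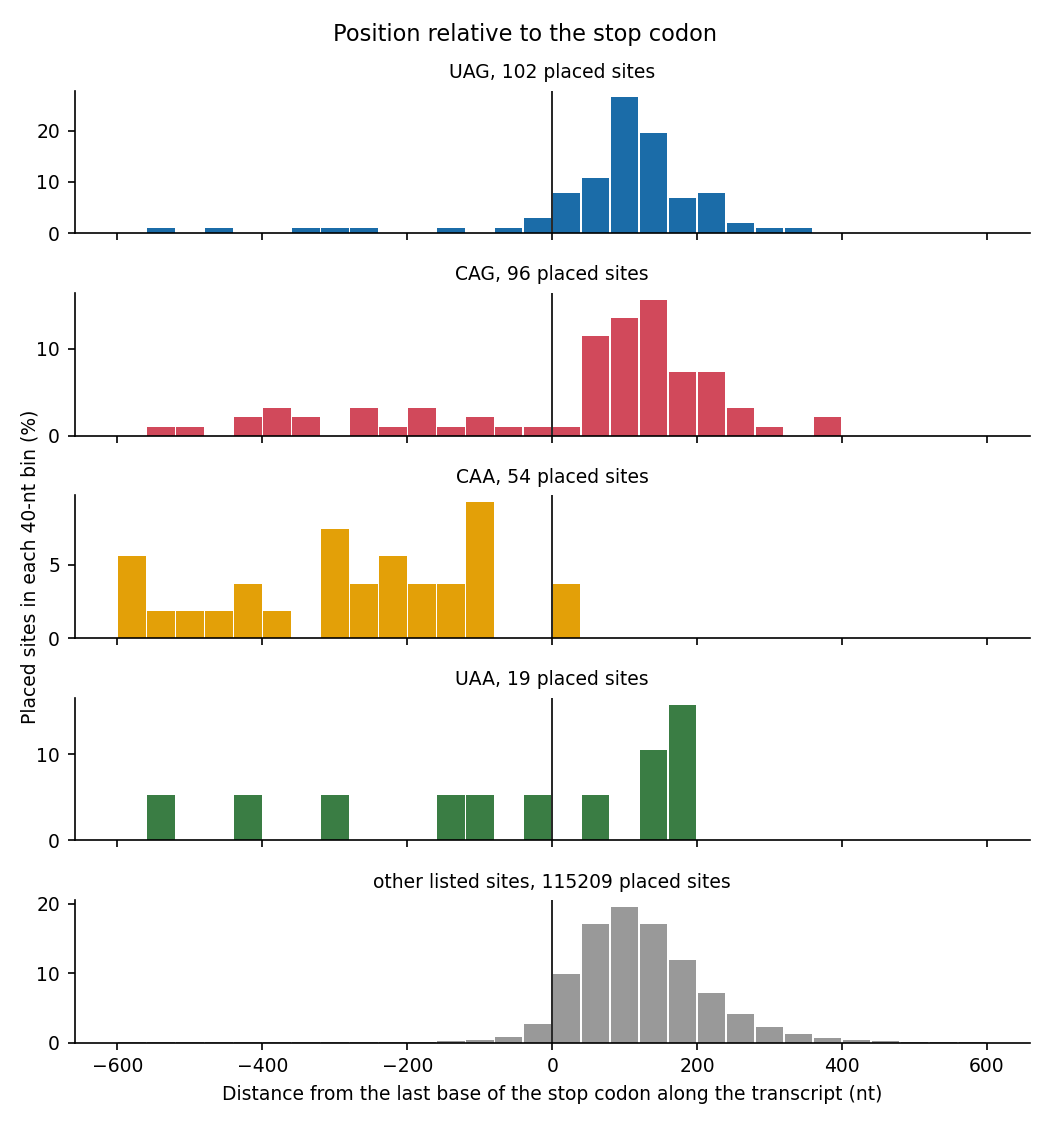
Share of placed sites (percent, with a scale of its own in each plot) in 40-nt bins by distance in nt from the last base of the stop codon, from 600 nt before it to 600 nt after it, for each motif and for the other listed sites. Of placed sites, 83.3% of UAG and 62.5% of CAG but 3.7% of CAA lay to the right of the line at 0.

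UAG and CAG sites of the 3′ UTR shared letters that the choice of members did not use. The base 2 nt after the site, called +2, was U at 67 of 85 UAG sites (78.8%, 69 to 86.2%) and at 50 of 60 CAG sites (83.3%, 72 to 90.7%). Among all 3′ UTR adenosines of these motifs, U stood at +2 in 35.4 and 31.7%. For every 10000 adenosines with U at +2, 30.6 UAG and 40.7 CAG sites were listed, and without that U 4.5 and 3.78. In coding sequence U stood at +2 of 1 of 16 UAG sites (6.25%) and 5 of 36 CAG sites (13.9%) against 23.5 and 21% of adenosines. Over all regions, UAG sites with U at +2 had a median level of 4.76% at a median depth of 273 reads, and those without it 6.67% at 139 reads. For CAG these values were 5.08% at 290 reads and 7.46% at 94 reads. These sets also differed in region. Coding sequence held 1 of 68 placed UAG sites with that U and 15 of 34 without it, and 5 of 55 and 31 of 41 for CAG. All 12 other motifs also had U at +2 more often among listed 3′ UTR sites than among adenosines, with lower shares of 40.2 (AAC) to 57% (AAG). The base 2 nt before the site was G at 37 of 60 CAG sites (61.7%) and 36 of 85 UAG sites (42.4%), against 18 and 19.9% of adenosines. This was not particular to them. Among listed 3′ UTR sites of the 12 other motifs the share ran from 15.7% (GAC) to 69.5% (GAA), with 44.4% for UAU and 53.3% for CAU. The most frequent five-letter contexts over all regions were GUAGU at 34 of 110 UAG sites and GCAGU at 35 of 105 CAG sites.

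The letters UGUA often stood upstream of the same sites, as in the first set of sequences above. UGUA is the core of binding sites of Pumilio proteins and of far upstream polyadenylation elements in plants, and with a pyrimidine after it a known m6A motif of its own. Here it was searched on the transcript strand in the 15 bases before the site, and was chosen after the contexts had been seen. It was found before 40 of 85 UAG sites (47.1%, 36.8 to 57.6%) and 19 of 60 CAG sites (31.7%, 21.3 to 44.2%) of the 3′ UTR. The shares were 9.73% of all UAG, 8.3% of all CAG and 10% of all 3′ UTR adenosines. The other listed 3′ UTR sites had 17.2%, from 12.3% for GAC to 28.5% for UAU, and those with a level under 10% had 15.1%. The most frequent start was 9 nt before the site, at 11 UAG (12.9%) and 9 CAG sites (15%). This was also the most frequent start among the other listed sites, at 1.88%, but their shares varied less by position. A start 5 nt before the site was found at 1.14% of them and at 0% of UAG and CAG sites. Whether the positions differ was not tested. Among members with a p-value of at most 1e-06 the shares were 17 of 36 UAG and 12 of 29 CAG sites.

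**Figure D3:**
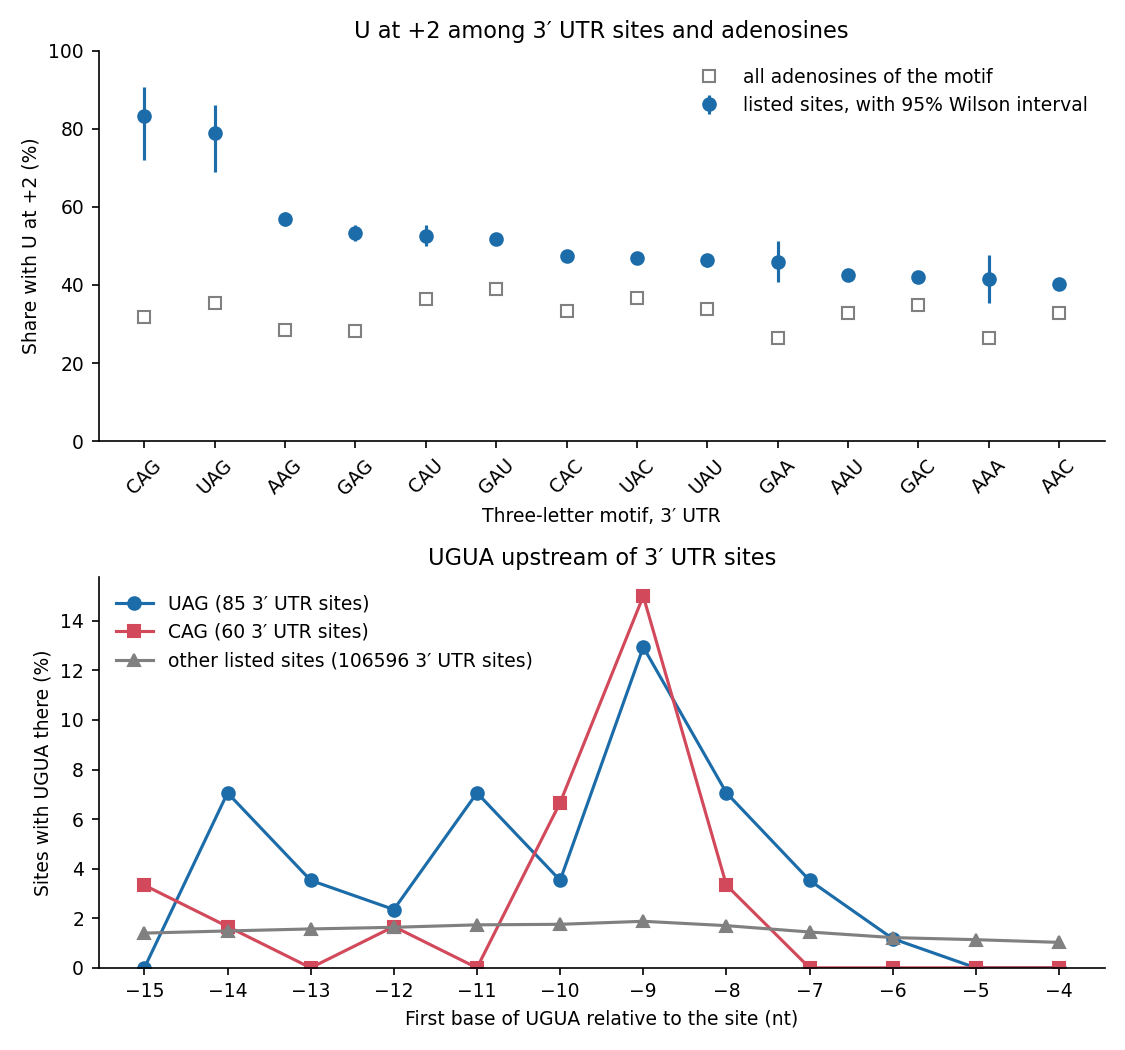
Top, share (percent) of 3′ UTR sites with U at +2 for each motif with at least 20 such sites, with 95% Wilson intervals, and the share among all 3′ UTR adenosines of the motif (open squares). Bottom, share of 3′ UTR sites (percent) with UGUA starting at each position before the site (nt). CAG and UAG have the highest shares in the top plot. In the bottom plot UAG, CAG and the other listed sites all peak at -9, at 12.9, 15 and 1.88%.

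The UAG sites with the highest levels at 50 reads or more all lay in the 3′ UTR. AT4G31360, annotated as a selenium-binding protein, had the highest UAG level at 50 reads or more, with 24 of 80 reads unconverted (30%, 21.1 to 40.8%). It lay 206 nt past the stop codon, and the nearest listed site, a UAU 12 nt upstream, was lower at 9 of 93 reads (two-sided Fisher's exact test, adjusted p = 0.00171). The same 3′ UTR held a CAG site at 7 of 120 reads (5.83%), also in a context with UGUA upstream. LCV2 followed with 28 of 137 reads (20.4%, 14.5 to 28%), 2 nt after a GAU at 92 of 137 reads (67.2%, exact test, adjusted p = 2.13e-14). SMO2-2, an enzyme of sterol synthesis, had 37 of 211 reads (17.5%, 13 to 23.2%), and its nearest listed site stood at 10.7% (exact test, adjusted p = 0.0779). AT1G74320, annotated as a protein kinase superfamily member, had 16 of 95 reads (16.8%), beside an AAC at 85.7% located 12 nt downstream. The difference from the neighbour was thus large at LCV2 and AT1G74320 and did not pass the test at SMO2-2.

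The UAG sites with the highest levels within 3 nt of another site had few reads. AT4G24880, the plant snurportin, a carrier of small nuclear ribonucleoproteins, had 10 of 35 reads (28.6%, 16.3 to 45.1%) and AT4G14290 5 of 22 reads (22.7%, 10.1 to 43.4%). Each lay 2 nt after a listed site at 39.5 and 12.5%, and neither pair differed in level by the exact test (adjusted p = 0.55 and 0.552). AT4G32470, a subunit of mitochondrial complex III, had 2 UAG sites 25 nt apart with near-equal levels, 113 of 2119 reads (5.33%, 4.45 to 6.37%) and 84 of 1603 reads (5.24%, 4.25 to 6.44%). Their nearest sites stood at 91.7 and 12.3%. The levels of the UAG sites were alike although those of their neighbours were not.

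CAG sites with the highest levels at 50 reads or more were 3′ UTR sites, except 1 that has no gene name in the deposited table. KEA2, a chloroplast potassium efflux antiporter, had 14 of 62 reads (22.6%, 14 to 34.4%), 2 nt after an AAC at 48.3% (exact test, adjusted p = 0.00773). A site with no gene name, which lay on an exon of AT1G27385, had 16 of 79 reads (20.3%, 12.9 to 30.4%). iqd2, a calmodulin-binding protein, had 54 of 342 reads (15.8%, 12.3 to 20%) and was the best covered of these, with a neighbour 16 nt away at 16.2%. ARPC1A, a subunit of the actin-nucleating ARP2/3 complex, had 8 of 51 reads (15.7%, 8.17 to 28%). SEC3A, an exocyst subunit, had 8 of 35 reads (22.9%, 12.1 to 39%), far below the GAU 2 nt downstream at 33 of 36 reads (exact test, adjusted p = 6.37e-09). The deep sites of emb2171 and TCTP were also lower than their neighbours, which stood at 2.91 and 12.5%.

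CAA sites formed another class, with few neighbours and some high levels. AT2G01130, annotated as a DEA(D/H)-box RNA helicase, had the highest level of all CAA sites, with 46 of 96 reads unconverted (47.9%, 38.2 to 57.8%), in the last exon 88 nt before the end of the stop codon. CPA, a subunit of the actin capping protein, had 30 of 79 reads (38%, 28.1 to 49%), 2 nt from an exon junction. Both were higher than their nearest listed sites, at 11.1% 150 nt away (exact test, adjusted p = 2.99e-05) and 5.88% 23 nt away (adjusted p = 6.57e-09). AT2G15570, a thioredoxin with the symbol ATHM3, had 65 of 201 reads (32.3%, 26.3 to 39.1%) with an AAC at 29.7% as the nearest site, 329 nt downstream. AT5G13470 had 16 of 61 reads (26.2%, 16.8 to 38.4%), 8 nt from a junction. RDR6, an RNA-dependent RNA polymerase of small RNA pathways, had 9 of 31 reads (29%, 16.1 to 46.6%), next to an A at 10 of 29 reads. AT1G21830 had 7 of 34 reads (20.6%) and likewise a listed A beside it, at 4 of 34 reads.

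The highest CAA levels tended to fall in one context, a comparison made after the values had been seen and given without a test. Of the 8 CAA sites with A at -2 and C or U at +2, 5 had a level of at least 30% and the median was 31.2% (2.21 to 47.9%). Of the 51 other CAA sites, 1 had such a level, that of CPA, and the median was 8.96%. The 5 sites lay in AT2G01130, AT2G15570, AT4G20095 (9 of 22 reads), AT1G21730 (6 of 20 reads) and the mitochondrial ATMG01390 (11 of 27 reads). Median depths of the 8 and the 51 sites were 85 and 73 reads. The sites of AT4G20095, AT1G21730 and ATMG01390 had only 20 to 27 reads, and at 20 reads no level under 20% could be listed. Whether depth bears on the difference was not tested.

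Related genes carried matching CAA sites. Tudor1 and Tudor2 are paralogous RNA-binding proteins of stress granules, and their contexts shared 26 of 31 bases. Tudor1 had 25 of 272 reads (9.19%, 6.3 to 13.2%) and Tudor2 had 32 of 213 reads (15%, 10.8 to 20.4%). Both sites lay 4 nt from an exon junction, 815 and 861 nt from the nearest listed site. This pair was chosen after its values had been seen. It was the only pair of contexts in different protein-coding genes that shared more than 22 of 31 bases, apart from contexts listed at identical copies.

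Introns end in AG, usually after a pyrimidine, so the distance to exon junctions was examined. Of coding members with a known distance, 9 of 98 lay within 10 nt of an exon junction, against 331 of 7469 other listed coding sites (4.43%). Beside CPA, only MP, the auxin response factor MONOPTEROS (CAG, 4 of 34 reads, 2 nt), and the transketolase AT2G45290 (UAG, 4 of 42 reads, 3 nt) lay within 3 nt, both at the lowest listable level. UAG and UAA are also stop codons, and 2 members were the A of an annotated stop codon. How many stop codons could have been listed was not counted, so this number cannot be called low or high. AT3G47070, a thylakoid phosphoprotein, had 7 of 151 reads (4.64%) at its UAG and AT2G26500, the PetM subunit of the cytochrome b6f complex, 22 of 986 reads (2.23%) at its UAA. Both values were the lowest that could be listed.

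The UAG with all reads unconverted lay in an intron. At the third base from the 5′ end of an intron of ATRX, a chromatin remodeller of the SWI2/SNF2 family, 24 of 24 reads were unconverted (100%, 86.2 to 100%). The AAA site 4 nt upstream, on the exon side, had 24 of 31 reads (77.4%, exact test, adjusted p = 0.0246). Of all 296 members, 289 lay on a RefSeq exon, 3 in introns and 3 outside genes, and 1 mitochondrial site was not placed. The other intron sites were a CAA of AT1G58602 and a UAA of RPP4.

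Distance to other listed sites differed between the motifs. Medians of the distance to the nearest listed site on the same strand were 6.5 nt (UAG), 10 nt (CAG), 203 nt (CAA) and 63.5 nt (UAA), against 9 nt for the other listed sites. A listed site within 12 nt was found for 84 of 110 UAG (76.4%), 58 of 105 CAG (55.2%), 13 of 59 CAA (22%) and 9 of 22 UAA sites (40.9%), against 63% of the other listed sites. Within 3 nt it was 31.8% of UAA (16.4 to 52.7%), 26.4% of UAG (19 to 35.3%), 22% of CAA (13.4 to 34.1%) and 19% of CAG sites (12.7 to 27.6%), against 15.2% of the other listed sites. By their motifs all CAA and UAA sites have an A at the next base, against 1329 of 119973 other listed sites. Their shares within 3 nt are thus not on equal terms with those of the other sites. CAA sites mostly lay either beside another site or far from any. No CAA site had its nearest neighbour between 4 and 12 nt away, and 34 of 59 (57.6%) had none within 100 nt, against 4.14% of the other listed sites.

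The offsets of close neighbours differed between the motifs, whose letters fix whether an A stands next to the site. At UAG sites, 18 of 110 had a listed site 2 nt upstream, and 12 of these were GAU. An adenosine stood there in 28 contexts, so 64.3% of these adenosines were themselves listed, with a median level of 12.4%. At the same offset 42.9% of adenosines were listed for CAG and 11.3% for the other listed sites. At CAG sites the neighbours lay 2 nt upstream (9 sites, median level 68.6%, 6 of them GAC) and 2 nt downstream (10 sites, 11.3%, 6 of them GAU). At CAA sites, 9 of 59 (15.3%) had the next A listed too, with a median level of 3.53%. Among the other listed sites the next base was A at 1329, and 40.4% of these had it listed. UAA sites had neighbours at 1, 2 and 3 nt, and 4 of the 7 nearest sites within 3 nt were AAU. CA2, a cytosolic carbonic anhydrase, shows the UAA case: 2 UAA sites lay 4 nt apart in a run of AAAU repeats, at 32 of 929 reads (3.44%) and 14 of 465 reads (3.01%). AT4G39170, a Sec14-like lipid transfer protein, had 11 of 237 reads (4.64%) at its UAA and 5.62% at the next A. NADP-ME4, a malic enzyme, had 2 UAG sites 3 nt apart at 20 of 542 reads (3.69%) and 17 of 560 reads (3.04%), and was chosen after its values had been seen.

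**Figure D4:**
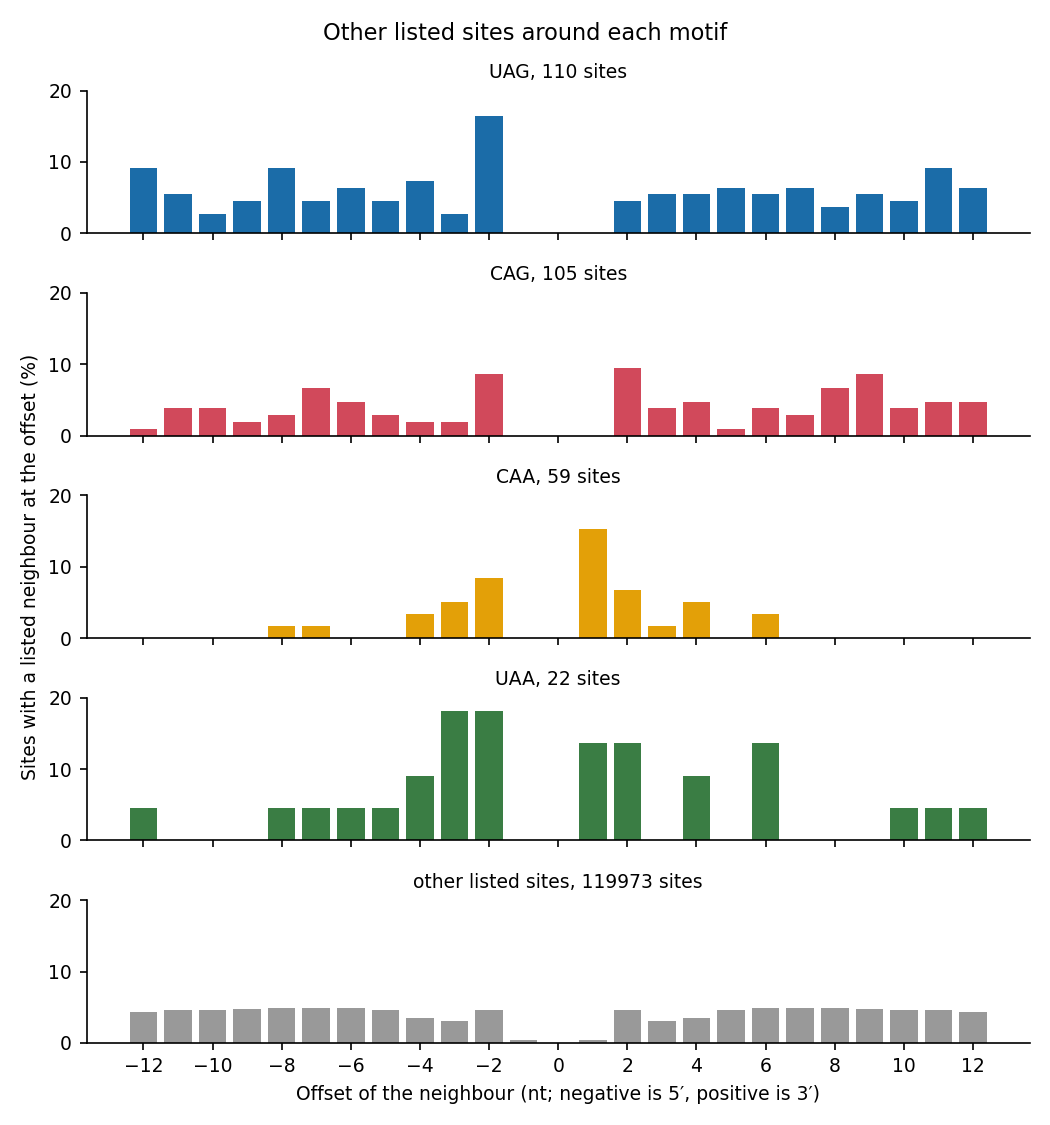
Share of sites (percent) with another listed site at each offset from -12 to 12 nt on the same strand, for each motif and the other listed sites. UAG has its highest bar at -2 (16.4%) and CAA at 1 (15.3%), while the other listed sites stay under 5% at each offset. The bars are not corrected for where an A stands. By its motif every CAA and UAA site has an A at 1, against 1329 of 119973 other listed sites. Where an A stood at 1, it was listed at 15.3% of CAA, 13.6% of UAA and 40.4% of the other listed sites.

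Against the nearest listed site, UAG and CAG sites were more often called lower than listed sites as a whole, and CAA and UAA sites were not. By two-sided Fisher's exact test on reads, adjusted over all 120269 sites, 64 of 110 UAG (58.2%), 49 of 105 CAG (46.7%), 11 of 59 CAA (18.6%) and 7 of 22 UAA sites (31.8%) were lower, where 32.3% of all listed sites were. Only 4 UAG, 2 CAG, 2 CAA and 1 UAA site were higher, 9 of 296 (3.04%), where 30.7% of all listed sites were. The nearest sites themselves had median levels of 16.6% (UAG), 15% (CAG), 11.1% (CAA) and 8.13% (UAA). Sites within a read length share reads, and the test compares pooled libraries. Its calls also depend on depth, with medians of 225.5 (UAG), 207 (CAG), 74 (CAA) and 95 reads (UAA). By observed level alone, the nearest site was higher for 83.6% of UAG, 75.2% of CAG, 57.6% of CAA and 68.2% of UAA sites. This held for 50.6% of the other listed sites. Whether depth bears on the split in calls between the motifs was not tested. Beside AT4G31360, CPA, AT2G01130 and the ATRX intron, the higher sites were in AL3 (UAG, 7.17 against 3.26%), AT1G34418 (CAG, 10.1 against 3.56%), RAN2 (CAG, 11.6 against 2.42%) and 2 chloroplast positions outside genes. These last names were chosen after their values had been seen.

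**Figure D5:**
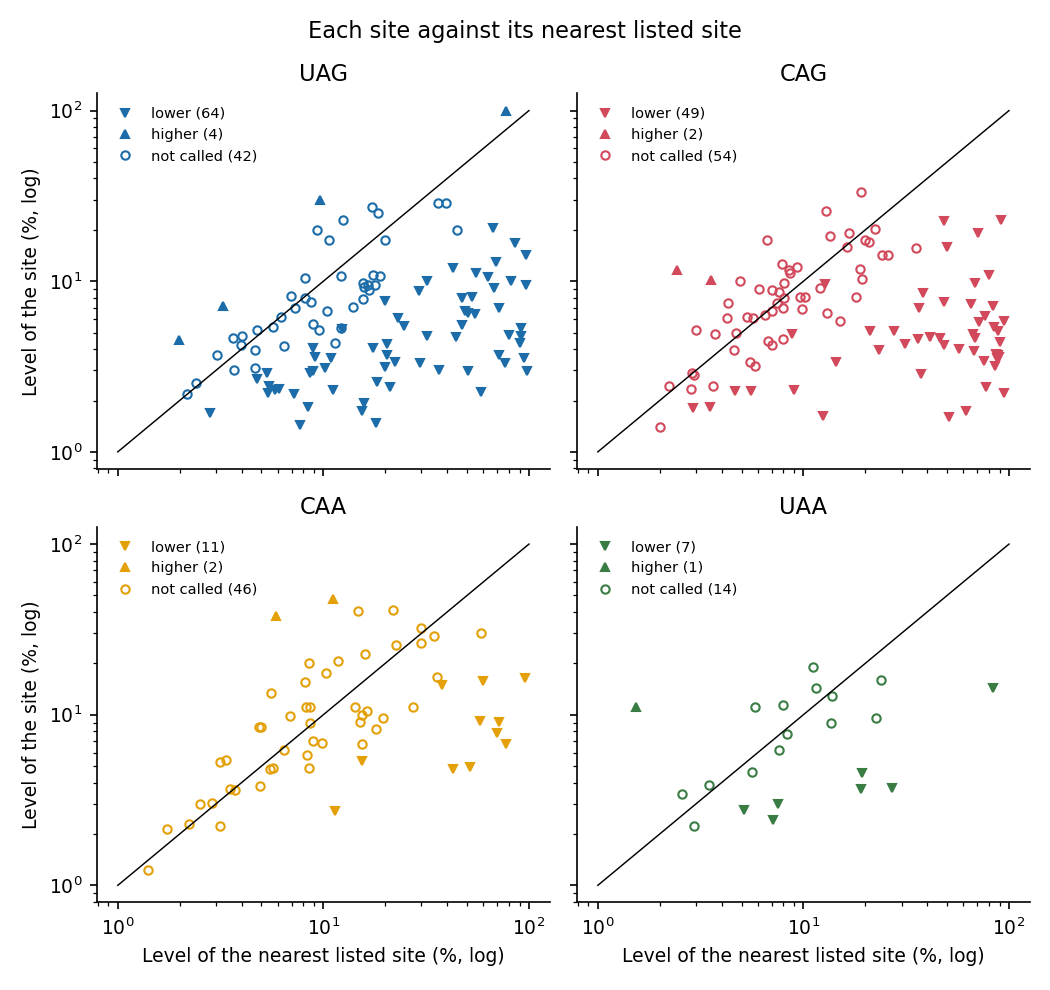
Level of each member (percent, log scale) against the level of its nearest listed site (percent, log scale). Filled triangles were called lower or higher by Fisher's exact test, open circles were not called, and the line marks equal levels. Of 296 members, 131 were called lower and 9 higher.

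Most members lay in genes with other listed sites. Members with a gene name fell in 265 named genes, 253 with 1 member, 11 with 2 and 1 with more. The median number of listed sites in the gene was 13 for UAG and CAG, 11 for CAA and 12.5 for UAA, and only 8 of 283 members were the sole listed site of their gene. The median of the highest level in the gene was 84.4% for UAG and 84.6% for CAG sites but 56.9% for CAA sites. In genes with other sites, 232 of 275 members lay below the gene's median level, 94 of 104 for UAG and 33 of 52 for CAA. These values per gene were not computed for the other listed sites, so they do not show a difference from the table at large.

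UAA sites were the fewest and closest to the limit of the table. After an RPP4 site (7 of 61 reads, 11.5%), the highest levels at 50 reads or more were 5 of 56 reads (8.93%) in KAC2, a kinesin-like protein of chloroplast movement, 6 of 78 reads (7.69%) in AT1G27921 and 7 of 112 reads (6.25%) in AT5G27850, a ribosomal protein gene. None of these 4 differed from its nearest listed site by the test. Their counts of 5 to 7 unconverted reads leave wide intervals, from 3.06 to 12.3% for AT5G27850 and from 5.67 to 21.8% for RPP4.

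RPP4, a TIR-NBS-LRR receptor for downy mildew, was the gene with more than 2 members. Its 6 CAA and 2 UAA sites lay in exons 2 to 6 of the coding sequence, at depths of 42 to 86 reads and levels of 6.85 to 14.3%. Between 5 and 7 reads were unconverted at each, and none differed from its nearest listed site by the test (exact test, adjusted p from 0.573 to 0.844). A further UAA lay in an intron of RPP4, at 4 of 21 reads. The contexts of 1 CAA and 1 UAA site of RPP4 occur 4 and 5 times in the genome, so reads of related genes can be counted there.

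Some members lay in structural RNAs. These RNAs lack long poly(A) tails, and the sites were chosen after their values had been seen. Where copies have identical contexts, reads may not be assignable to 1 copy, so the values of copies cannot be taken as independent. The CAG of U6 small nuclear RNA, in the ACAGAGA box that FIO1 methylates, was listed at 3 loci with identical contexts, which occur 8 times in the genome. It had 5 of 27 reads at U6-29 (18.5%, 8.18 to 36.7%), 8 of 24 at U6.4 (33.3%, 18 to 53.3%) and 5 of 26 at U6-26, which overlaps AT3G13857 (19.2%, 8.51 to 37.9%). The 3 intervals overlap. The UAG of 18S ribosomal RNA had 236 of 8810 reads (2.68%, 2.36 to 3.04%) and 214 of 8755 reads (2.44%, 2.14 to 2.79%) at its 2 copies. The CAG of chloroplast 16S ribosomal RNA had 99 of 3414 (2.9%) and 95 of 3381 reads (2.81%). The chloroplast proline transfer RNA held a CAG at 24 of 277 reads (8.66%) and a UAG at 25 of 329 reads (7.6%), 8 nt apart.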

How the data were processed

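CAM-seq libraries of polyadenylated RNA from 3 seedling replicates were sequenced. Per the labels and methods, the authors trimmed reads with Cutadapt, took a molecular barcode from read 1 and mapped the reads to TAIR10 with hisat2-3n, then removed reads with many mismatches or unconverted adenosines. The last filter can lower levels where sites cluster. Versions are not given in the sources used here.

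The deposited table holds raw counts per site (depth and unconverted reads), read here as pooled over the replicates because the columns name no sample, and the authors' binomial p-value. Per-replicate depth is unknown. The deposited p-value equalled the binomial probability at 1% background to a relative difference of 9.56e-12 over 111967 sites. Members covered 20 to 43195 reads.

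Levels are unconverted reads over depth. Regions came from RefSeq (TAIR10.1), using the transcript with the longest coding sequence. Of 289 nuclear member contexts, 274 equalled the reference, and most others cross exon junctions. All 296 members are A in the reference.

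Distances are between genome positions on the same strand. Two-sided Fisher's exact tests against the nearest site, the 5′ one in a tie, were adjusted by Benjamini-Hochberg over all sites (threshold 0.05). Intervals are 95% Wilson intervals. The test was checked on simulated data. Named sites were, per motif, the 4 highest at 50 reads or more, the 2 deepest, the 2 highest within 3 nt of another site, those at stop codons or within 3 bases of exon or intron ends, and the 4 genes with most members. Sites named beyond this rule were chosen after their values had been seen. The members and lists were chosen with earlier results of these data known. Python 3.11.15, pandas 2.3.3, NumPy 2.4.6 and SciPy 1.17.1 were used.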

Additional observations from a re-analysis of the deposited data

How the results depend on the processing

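Of 72 values under alternative settings of 23 results, 44 moved by less than their interval or, for counts, by less than 1.5 times, and 28 moved further. The share of listed sites in the 4 motifs was 0.295% at a depth of at least 100 reads, 0.157% at p of at most 1e-04, 0.107% at p of at most 1e-06 and 0.0746% weighted by unconverted reads. At a depth of at least 100 reads, median levels fell to 4.85% (CAA), 4.58% (CAG), 4.13% (UAG) and 3.68% (UAA). For CAA the median was 6.19% from 50 reads upward and 15.7% at p of at most 1e-04. UAA had the lowest median of the 4 motifs at 50 reads or more (3.79%), at 100 reads or more and at p of at most 1e-04 (4.64%). The share within 3 nt of another listed site was 8.18% (UAG), 11.4% (CAG), 1.69% (CAA) and 4.55% (UAA) if the neighbour had to reach 20%, and 41.7% (CAA) and 63.6% (UAA) at 100 reads or more. Close neighbours of UAG, CAA and UAA sites thus mostly had levels under 20%. The share in the 3′ UTR was 91.9% (UAG), 80.6% (CAG), 0% (CAA) and 54.5% (UAA) at 100 reads or more, and 95.1% (UAG), 78.6% (CAG) and 66.7% (UAA) at p of at most 1e-04. Against the nearest site over 100 nt away, 18 CAA and 4 UAA sites were lower and 4 CAG and 2 UAA sites higher, where 27.2 and 35.1% of all listed sites were lower and higher. With no other listed site within 12 nt, a setting chosen after seeing the data, U stood at +2 of 86.7% of UAG and 90.9% of CAG sites in the 3′ UTR. The causes of these shifts were not tested. A level under 6% could not be listed at 100 reads, so the depth sets which low levels are seen. No paired analysis was possible because the 3 replicates form 1 group and were read as pooled in the table.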
